A study of Mus musculus with 10 samples.

Results

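Complement is a cascade of proteases and binding proteins, and 8 mouse genes of it are described here in melanoma cells: the classical pathway proteases C1ra and C1s1, the components C4b and C3, factor B (Cfb), the C1 inhibitor (Serping1), and the membrane regulators Cd55 and Cd59a. They were taken by symbol from a table of read counts, in which each symbol matched 1 entry, so they are 8 of the 77175 entries. Of these 8 genes, 6 passed the filter on low counts and were tested. C3 had 0 to 4 counts per library and Cd55 had none, so both were too low to measure.

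The study used bulk RNA sequencing of B16-F10, a transplantable mouse melanoma line (called WT here), and of B16-F10-OVA, which is B16-F10 carrying the lentiviral construct pLV[Exp]-Neo-EF1A>{ovalbumin}, that is, chicken ovalbumin as a model antigen driven by the EF1A promoter (called OVA here). Each line was left untreated (2 libraries) or was kept with IFN-γ at 50 ng/ml for 24 h (3 libraries). The question put to the series was if IFN-γ acts on these lines unequally. The labels do not say whether the libraries of a group came from separate cultures, nor whether the OVA line is 1 clone, so p-values measure only the spread between these libraries, which may be technical.

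In the classical pathway, C1q binds antibody or a surface and activates the serine proteases C1r and C1s, and C1s cleaves C4 and C2, whose fragments form an enzyme that cleaves C3. Factor B supplies the protease of the corresponding enzyme of the alternative pathway. Host cells limit the cascade with C1 inhibitor, which inactivates C1r and C1s, with CD55, which takes the C3-cleaving enzymes apart, and with CD59, which blocks assembly of the membrane attack complex. The liver makes most of these proteins in plasma, and many other cell types make some of them and make more when given IFN-γ.

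RefSeq promoter windows (GRCm38.p6, from 250 bases before to 50 after the start site) were found for 5 of the 8 genes, namely C1ra, C1s1, C3, Cd55 and Cd59a. They were searched on both strands for the GAS core TTCNNNGAA, a motif known from promoters that answer to IFN-γ, and for the ISRE core, a pair of GAAA separated by any 2 bases, which IRF factors bind. The GAS core, which reads the same on both strands, was found in 8.3% of all 32851 RefSeq windows and the ISRE core in 3.44%. Of the 5 genes, C1ra held 1 GAS core, at bases 33 to 41 after the start site, and Cd59a held 1 ISRE core on the strand of the gene, at bases -187 to -178 relative to the start site. No match was found in the windows of C1s1 (2 annotated starts), C3 or Cd55. Printed 5′ to 3′ on the strand of the gene, with the matched core in capitals, are the windows of C1ra (chr6:124512371-124512670, plus strand) and C1s1 (chr6:124542310-124542609, minus strand), the adjacent protease genes that rose by different amounts, and of Cd59a (chr2:104095551-104095850, plus strand), the tested gene that did not rise. A match is a description of letters and not of a bound site.
C1ra: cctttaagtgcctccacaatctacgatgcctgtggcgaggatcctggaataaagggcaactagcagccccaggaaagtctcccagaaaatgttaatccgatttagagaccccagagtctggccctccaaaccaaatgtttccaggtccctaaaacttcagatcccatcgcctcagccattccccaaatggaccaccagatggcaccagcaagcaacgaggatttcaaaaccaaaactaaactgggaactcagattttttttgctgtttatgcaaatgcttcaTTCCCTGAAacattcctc
C1s1: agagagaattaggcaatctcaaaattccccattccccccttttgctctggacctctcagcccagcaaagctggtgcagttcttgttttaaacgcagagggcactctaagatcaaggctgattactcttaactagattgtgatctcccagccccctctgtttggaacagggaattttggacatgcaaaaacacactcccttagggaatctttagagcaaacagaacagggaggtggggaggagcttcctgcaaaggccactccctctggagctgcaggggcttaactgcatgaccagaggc
Cd59a: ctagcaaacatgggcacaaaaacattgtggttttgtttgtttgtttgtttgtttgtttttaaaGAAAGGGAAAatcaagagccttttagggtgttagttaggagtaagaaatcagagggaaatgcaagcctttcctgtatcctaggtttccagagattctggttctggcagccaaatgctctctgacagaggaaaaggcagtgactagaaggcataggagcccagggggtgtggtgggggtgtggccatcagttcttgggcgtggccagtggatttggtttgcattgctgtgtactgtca

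Total counts ran from 17728722 to 19642533 per library, and 15526 genes passed the count filter. Levels are CPM, the count relative to the library's depth after scaling by TMM factors. Differences were tested with edgeR's quasi-likelihood F test over all 15526 genes, and a gene is called at a Benjamini-Hochberg adjusted p under 0.05. All 7 melanocyte markers listed were detected, with a summed level of 23096 to 24500 CPM. Of the 8 macrophage markers, Ptprc and Cd14 had no counts in any library, and Cd68 and Lyz2 were the only ones above 5 counts in a library. The macrophage sum was 2.16 to 3.25 CPM in untreated and 3.30 to 5.04 CPM in treated libraries. Cd68 was higher with IFN-γ in WT (log2 change 0.81, edgeR adjusted p = 0.0110) and in OVA (0.70, edgeR adjusted p = 0.0256). Lyz2 was not called in WT (-0.33) or OVA (-0.54). The part of the macrophage markers in the results was not tested. All 4 hepatocyte markers, all 7 T cell markers and 3 of 4 endothelial markers had at most 5 counts in every library. Of 7 fibroblast markers 4 had at most 5 counts in every library, and the others were Col1a1, Col1a2 and Pdgfra. The fibroblast sum was 6.33 to 7.67 CPM untreated and 4.71 to 5.24 CPM treated in WT, and 6.44 to 6.79 and 4.18 to 5.96 CPM in OVA. Col1a1 was lower with IFN-γ in OVA (log2 change -0.73, edgeR adjusted p = 0.0118) and lower in treated OVA than in treated WT cells (-0.78, edgeR adjusted p = 0.0149). Col1a2 was not called in either comparison, at 0.01 (edgeR adjusted p = 0.972) and 0.67 (edgeR adjusted p = 0.0529). Pdgfra was lower with IFN-γ in WT (-1.07, edgeR adjusted p = 0.0349), and was not called in OVA (-0.91) or between treated lines (0.01). The part of these markers in the results was not tested. Irf1, a transcription factor that IFN-γ induces, rose from 10.7 ± 0.520 CPM (SD, n = 2) to 701 ± 22.6 CPM (SD, n = 3) in WT and from 10.4 ± 0.0999 to 660.4 ± 21.0 CPM in OVA.

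With IFN-γ, C1ra, C1s1, C4b, Cfb and Serping1 rose in both lines, and Cd59a fell in WT. In WT that makes 5 of the 6 tested genes higher, where 24.5% of all tested genes were higher, and 1 lower, where 19.7% were lower. In OVA it makes 5 of 6 higher, where 25.9% of all tested genes were higher, and 0 lower, where 22.9% were. The median log2 change of the 6 was 3.24 in WT and 2.92 in OVA, against 0.01 and 0.00 over all tested genes. These medians take in edgeR values of 6.47 and 6.56 for Serping1, whose change cannot be sized, as it had 0 untreated counts. Set against a floor of 3 untreated counts, Serping1 would stand at 2.84 and 2.96, and both medians would be lower. C4b and Serping1 passed the count filter only through their treated libraries, and the 8 genes were chosen with earlier results known. The numbers called and the medians thus describe the genes and do not test the pathway. In bulk RNA, more cells transcribing a gene and more RNA per cell cannot be told apart.

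**Figure D1:**
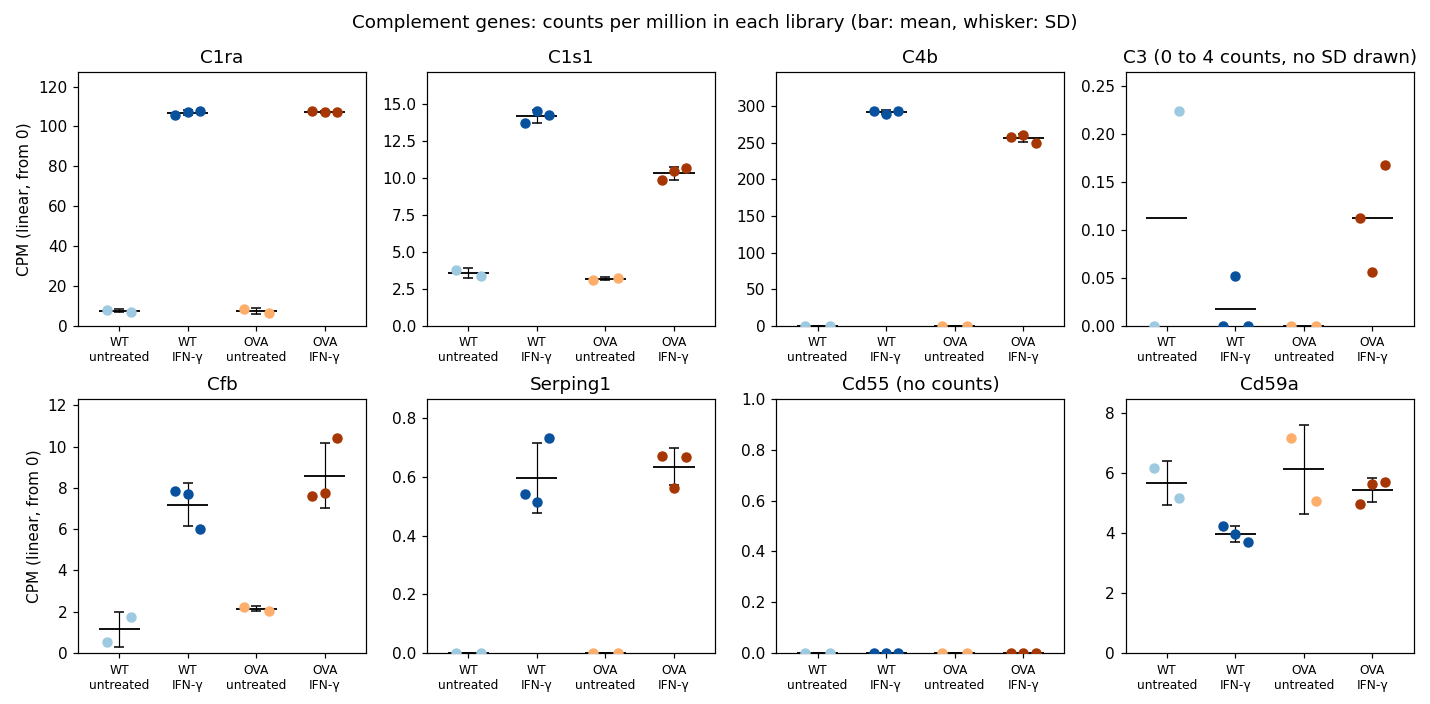
Level in CPM (vertical axes, linear, from 0) of the 8 complement genes in each library, by line and treatment, with the group mean as a bar and the SD as a whisker (none for C3). Treated points of C1ra, C1s1, C4b, Cfb and Serping1 lie above all untreated points, those of C4b between 249.7 and 294 CPM, while Cd59a overlaps in OVA and Cd55 is at 0 in every library.

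C1ra (ENSMUSG00000055172) encodes C1r, the protease that activates itself and then C1s. Its level was 8.01 and 7.06 CPM in the untreated WT libraries and 106, 107 and 108 CPM in the treated ones. In OVA it was 8.49 and 6.44 CPM untreated and 108, 107 and 107 CPM treated. All 6 treated libraries were thus far above all 4 untreated ones, and the treated libraries of the lines lay within 105.7 to 108 CPM. The log2 change was 3.83 (SE 0.090, edgeR adjusted p = 1.59e-17) in WT and 3.84 (SE 0.090, edgeR adjusted p = 1.41e-17) in OVA. C1rb is a near copy that shares 48% of the 50-base words of the C1ra transcripts, and it had at most 1 count in any library. How a read matching both copies was counted is not stated in the labels.

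C1s1 (ENSMUSG00000038521) encodes C1s, the protease that cleaves C4 and C2, and lies next to C1ra on chromosome 6 with no protein-coding gene between them. Its level was 3.81 and 3.36 CPM in untreated WT and 13.7, 14.6 and 14.3 CPM in treated WT. In OVA it was 3.12 and 3.25 CPM untreated and 9.85, 10.5 and 10.7 CPM treated. The groups did not overlap, and every treated OVA library was below every treated WT library. The log2 change was 1.98 (SE 0.12, edgeR adjusted p = 1.19e-10) in WT and 1.70 (SE 0.12, edgeR adjusted p = 2.20e-09) in OVA. Its near copy C1s2 had at most 2 counts in a library, and Gm16567, annotated antisense to it, had none.

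Because C1ra changed more than C1s1, the ratio of their levels per kb of exon moved with treatment. It was 2.21 ± 0.00108 (SD, n = 2) in untreated and 7.92 ± 0.194 (SD, n = 3) in treated WT cells, and 2.47 ± 0.546 and 10.9 ± 0.50 in OVA cells. The absolute size of the ratio is uncertain, since near copies share 48% of the 50-base words of C1ra and 21.8% of those of C1s1. The treated ratios did not overlap between the lines, at 7.71 to 8.10 in WT and 10.5 to 11.5 in OVA. The ratio was not tested between the lines, and the difference of the IFN-γ responses was called for neither gene.

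C4b (ENSMUSG00000073418) encodes C4, the substrate of C1s and of the lectin pathway proteases, and had the largest log2 change of the tested complement genes whose change could be sized. It was almost absent untreated, with 5 and 5 counts in WT and 5 and 3 counts in OVA, or 0.162 to 0.280 CPM. With IFN-γ it reached 294, 289 and 293 CPM in WT and 258, 261 and 249.7 CPM in OVA. The groups were far apart in both lines, and the treated OVA libraries all lay below the treated WT ones. The log2 change was 10.00 (SE 0.34, 95% interval 9.28 to 10.73, edgeR adjusted p = 5.96e-22) in WT and 10.16 (SE 0.38, 9.34 to 10.97, edgeR adjusted p = 8.35e-22) in OVA, with the width set by the few untreated counts.

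C4a, the neighbouring near copy of C4b, shares 34.6% of the 50-base words of C4b, so reads could have been split between the copies. It had 10 to 12 counts in untreated and 19 to 47 counts in treated libraries, and its log2 change was 1.56 (SE 0.34, edgeR adjusted p = 8.64e-04) in WT and 1.26 (SE 0.36, edgeR adjusted p = 0.00666) in OVA, where the call was lost without untreated OVA replicate 2 (edgeR adjusted p = 0.0547). When the counts of C4a were added to those of C4b, an alternative chosen after seeing the data, the log2 change of the sum was 8.27 in WT and 8.34 in OVA.

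Cfb (ENSMUSG00000090231) encodes factor B and is the only tested alternative pathway gene that rose. It had 10 and 31 counts (0.552 and 1.74 CPM) in untreated WT and 145, 150 and 115 counts (7.85, 7.72 and 6.02 CPM) in treated WT. In OVA it had 41 and 38 counts (2.25 and 2.06 CPM) untreated and 136, 138 and 187 counts (7.61, 7.76 and 10.4 CPM) treated. Treated libraries lay above all untreated ones in both lines, and the first untreated WT library was below the other untreated ones. The log2 change was 2.65 (SE 0.33, edgeR adjusted p = 7.75e-07) in WT and 2.00 (SE 0.26, edgeR adjusted p = 3.15e-06) in OVA. Without untreated WT replicate 1 or 2 the change in WT was 2.05 or 3.69, called both times.

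The gene model Gm20547 covers Cfb and the adjacent C2 in the GENCODE M21 annotation (GRCm38). In its transcripts occur 73% of the 50-base words of Cfb and 38.7% of those of C2. How the counts of Gm20547 divide between Cfb and C2 was not tested, so a sum of Cfb and Gm20547 can hold reads of C2. The counts of Gm20547 varied between libraries of 1 group. They were 27 and 0 in untreated WT, 71, 65 and 125 in treated WT, 7 and 5 in untreated OVA, and 81, 67 and 0 in treated OVA. Cfb made up 27.0% of the sum in the first untreated WT library and 100% in the second. The sums were 37 and 31 counts, then 216, 215 and 240, in WT, and 48 and 43, then 217, 205 and 187, in OVA, so they varied less within 3 of the 4 groups on the CPM scale than Cfb alone did.

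With Gm20547 added to Cfb, an alternative chosen after seeing the data, the log2 change was 2.63 (SE 0.16, edgeR adjusted p = 9.56e-11) in WT and 2.20 (SE 0.15, edgeR adjusted p = 5.35e-10) in OVA. The SE of the sum was thus below that of Cfb alone in both lines, and the rise was called either way.

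**Figure D2:**
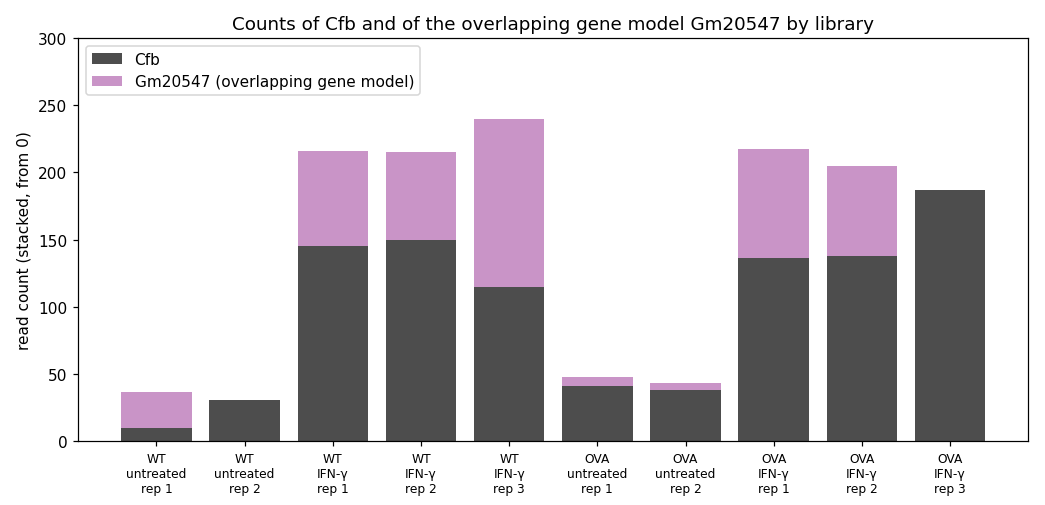
Read counts (vertical axis, linear, from 0) of Cfb and of the overlapping gene model Gm20547, stacked, in each of the 10 libraries. The stacked height is 31 to 48 in untreated and 187 to 240 in treated libraries, while the share of Cfb differs between libraries of 1 group.

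C3 (ENSMUSG00000024164), the component on which all pathways of complement converge, had 0 and 4 counts in untreated WT, 0, 1 and 0 in treated WT, 0 and 0 in untreated OVA and 2, 1 and 3 in treated OVA. At most 0.224 CPM was reached in any library, and no response was detectable at this depth. With no filter on low counts C3 was tested and not called in any comparison, at edgeR adjusted p = 0.201 to 0.589.

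Serping1 (ENSMUSG00000023224) encodes C1 inhibitor. It had 0 counts in all 4 untreated libraries, 10, 10 and 14 counts in treated WT (0.541, 0.515 and 0.733 CPM), and 12, 10 and 12 counts in treated OVA (0.672, 0.562 and 0.669 CPM). Every treated library was above every untreated one, at a level that stayed below 1 CPM. Set against 3 counts over the whole untreated group, the mean treated level was 7.15-fold higher in WT and 7.77-fold higher in OVA. This floor covers the counting error of the untreated side only. Serping1 was called in both lines (edgeR adjusted p = 2.29e-04 in WT and 1.52e-04 in OVA), which tests a difference and not these folds. It passed the count filter only through its treated libraries. A filter of at least 1 CPM in 5 libraries leaves Serping1 untested.

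Cd55 (ENSMUSG00000026399), the decay accelerating factor, had no counts in any of the 10 libraries, which allows a level of up to 0.0834 CPM in untreated WT, 0.0526 CPM in treated WT, 0.0816 CPM in untreated OVA and 0.0560 CPM in treated OVA at 3 counts per group. Its near copy Cd55b and the antisense gene Gm16083 had none either.

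Cd59a (ENSMUSG00000032679), the inhibitor of the membrane attack complex, was at 6.18 and 5.15 CPM in untreated WT and at 4.22, 3.96 and 3.72 CPM in treated WT. In OVA it was at 7.18 and 5.08 CPM untreated and at 4.98, 5.62 and 5.69 CPM treated. The treated WT libraries were below both untreated ones, whereas the groups overlapped in OVA. It fell in WT by 0.52 on the log2 scale (SE 0.16, edgeR adjusted p = 0.0155), a call that was lost without untreated WT replicate 1 (log2 change -0.37, edgeR adjusted p = 0.179). In OVA the log2 change was -0.17 (95% interval -0.50 to 0.15, edgeR adjusted p = 0.375) and was not called. Its near copy Cd59b had 1 to 7 counts per library.

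Of a list of 60 complement genes that holds these 8, 18 had no counts in any library, 22 had 1 to 49 counts over all 10 libraries, and 20 were tested. In WT 10 of the 20 rose and 3 fell, where 24.5% of all tested genes were higher and 19.7% lower, with a median log2 change of 0.35 against 0.01 over all genes. In OVA 11 rose and 1 fell, where 25.9% and 22.9% of all tested genes did, with a median of 0.45 against 0.00. DESeq2 called 12 and limma-voom 13 of the 20 in WT, where edgeR called 13, and 10 and 11 in OVA, where edgeR called 12. Without the 8 genes, 5 of the remaining 14 rose and 2 fell in WT, and 6 rose and 1 fell in OVA, with medians of 0.03 and 0.25. Set against those same shares over all tested genes, the counts of the 14 in WT are near the background.

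The list for the start of the classical pathway held 11 genes, near copies such as C4a and the C1r-like C1rl included. Of these, 6 were tested (C1ra, C1s1, C1rl, C2, C4a and C4b) and all 6 rose in both lines, where 24.5% of all tested genes were higher in WT and 25.9% in OVA. C4b passed the count filter only through its treated libraries, and the counts of C4a can hold reads of C4b. The 6 are thus a description and not a test of the pathway. C2, the other substrate of C1s, was already at 109 ± 2.06 CPM (SD, n = 2) untreated and 483 ± 6.47 CPM (SD, n = 3) treated in WT, and at 107 ± 8.96 and 480.004 ± 6.35 CPM in OVA. Its log2 change was 2.14 (SE 0.040) and 2.16 (SE 0.040). C1rl, a C1r-like protease, rose by 0.88 and 0.91 on the log2 scale. The recognition subunits C1qa and C1qc had no counts, and C1qb was not tested.

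Of 9 lectin pathway genes 3 were tested, and Masp1, a protease of that pathway, was the 1 that changed. It fell by 1.16 on the log2 scale in WT (SE 0.12, edgeR adjusted p = 3.14e-07), from 9.98 ± 0.409 to 4.48 ± 0.202 CPM, and by 1.28 in OVA (SE 0.12, edgeR adjusted p = 1.47e-07), from 8.87 ± 0.152 to 3.64 ± 0.365 CPM. Of 4 genes of the alternative pathway and the C3 step, Cfb rose and properdin (Cfp) was tested and not called in either line. Of 7 terminal pathway genes, C6 and C8g were tested. C6, a component of the membrane attack complex, fell in WT (11 and 18 counts untreated, 4, 7 and 6 treated, edgeR adjusted p = 0.0320) and was not called in OVA, and the difference of these responses was not called (edgeR adjusted p = 0.739). The C6 call was lost with DESeq2 (adjusted p = 0.0977), and without untreated WT replicate 2 or treated WT replicate 1 or 3 (edgeR adjusted p = 0.296, 0.0853 and 0.0569).

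Of 11 soluble regulators only Serping1 and clusterin (Clu) passed the filter, and Clu was not called. Of 8 membrane regulators 3 were tested, and Cr1l and Cd46 rose in both lines. Cr1l, known as Crry, the rodent regulator that limits C3 and C4 deposition, went from 33.2 ± 0.723 to 42.6 ± 4.14 CPM in WT (log2 change 0.36, SE 0.070, edgeR adjusted p = 4.46e-04) and from 34.9 ± 0.997 to 45.5 ± 1.94 CPM in OVA (log2 change 0.38, SE 0.069, edgeR adjusted p = 1.85e-04). Cd46, a cofactor for cleavage of C3b and C4b, rose by 0.76 in WT and 0.45 in OVA on the log2 scale, to 3.86 ± 0.260 and 3.79 ± 0.477 CPM. In OVA the Cd46 call was lost with DESeq2 (adjusted p = 0.180) and limma-voom (0.0538). It was also lost without treated WT replicate 1 or 2, untreated OVA replicate 1 or 2, or treated OVA replicate 1 or 3 (edgeR adjusted p = 0.0502 to 0.211). Of 10 receptors, C1qbp and Itgb2 were tested, and C1qbp, the C1q-binding mitochondrial protein, rose in OVA by 0.12 on the log2 scale (edgeR adjusted p = 0.0190) and was not called in WT (0.04). The C1qbp call was lost with DESeq2 (adjusted p = 0.0782) and without untreated OVA replicate 1 or 2 or treated OVA replicate 1 or 3 (edgeR adjusted p = 0.0564 to 0.175).

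**Figure D3:**
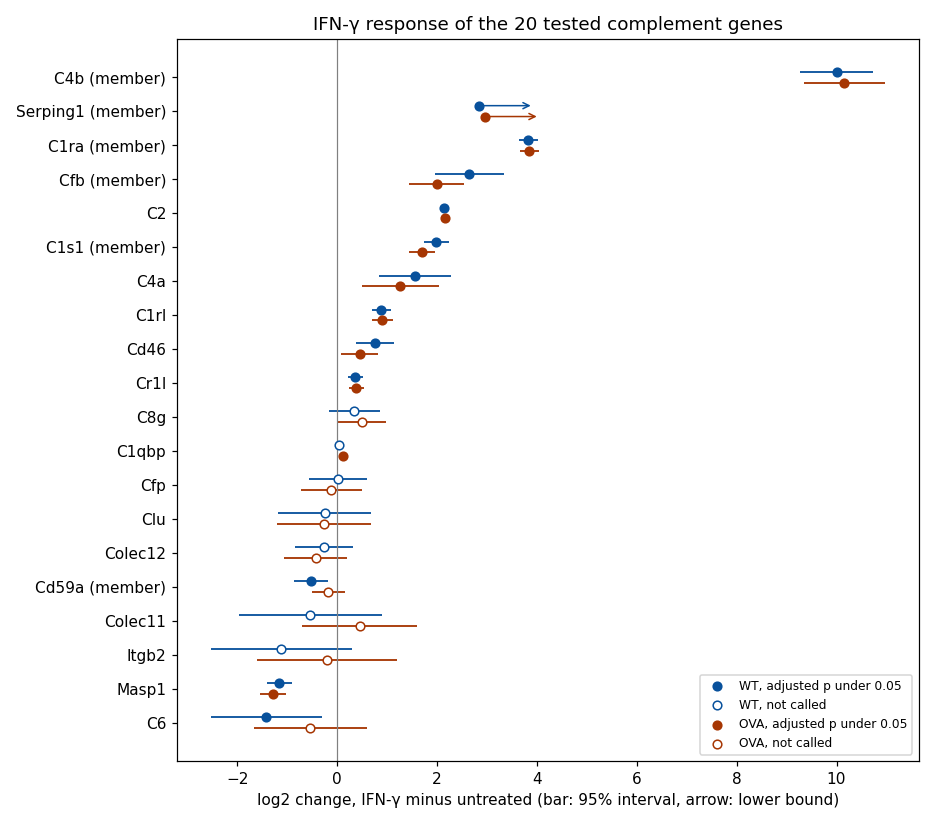
log2 change with IFN-γ (horizontal axis) of the 20 tested complement genes in WT and OVA, with 95% intervals from the edgeR fit. Filled points are called at an adjusted p under 0.05. Serping1, with no untreated counts, is drawn with an arrow, labelled lower bound, at its mean treated level over a floor of 3 untreated counts. C4b lies at 10.00 and 10.16, and Masp1 at -1.16 and -1.28.

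Levels of different genes were compared per kb of exon (exon lengths of GENCODE M21, another annotation than the one counted with). The lengths were not corrected for sequence shared with near copies. Ranked were the members, with C2 and Cr1l set beside them and no other list genes. In treated WT the order was C2 at 125 CPM per kb, C4b at 51.3 ± 0.442, C1ra at 35.9 ± 0.376, C1s1 at 4.53 ± 0.142, Cr1l at 4.11 ± 0.400, Cfb at 2.55 ± 0.361, Cd59a at 2.19 ± 0.140 and Serping1 at 0.257 ± 0.0512 (SD, n = 3). C1s1 and Cr1l, and Cfb and Cd59a, had SDs that overlapped. In untreated WT the order was C2 at 28.2, Cr1l at 3.21 ± 0.0698, Cd59a at 3.13 ± 0.402, C1ra at 2.53 ± 0.225, C1s1 at 1.15 ± 0.101, Cfb at 0.405 ± 0.296 and C4b at 0.0488 CPM per kb, and the SDs of Cr1l and Cd59a, and of Cd59a and C1ra, overlapped. On this scale C4b had the lowest of these 7 untreated levels and, treated, the level next below C2. The place of Cfb depends on the split with Gm20547, whose counts can include reads of C2. With these counts added, the level over the exon length of Cfb was 4.17 ± 0.266 CPM per kb in treated WT. Its SD overlapped those of C1s1 and Cr1l, and the level was 0.669 ± 0.0767 in untreated WT.

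**Figure D4:**
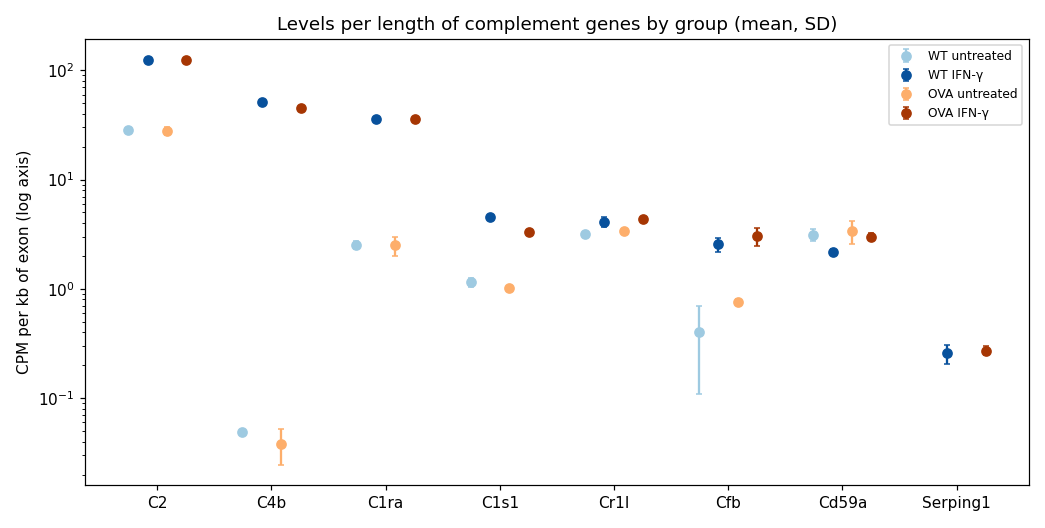
Mean level per length in CPM per kb of exon (vertical axis, log scale) with SD for 6 of the 8 genes and for C2 and Cr1l, in each line untreated (n = 2) and treated (n = 3). C4b moves from 0.0488 to 51.3 CPM per kb in WT and from 0.0383 to 45.0 in OVA, and Serping1, at 0 untreated, is drawn for treated cells only.

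The difference of the IFN-γ responses, OVA minus WT, was called for 0 of the 5 genes that could be sized and for 0 of the 20 in the list, where 0.341% of all tested genes were called by edgeR. None of the 5 had an unadjusted p under 0.05, and DESeq2 and limma-voom called 0. The log2 difference was 0.02 (95% interval -0.25 to 0.29) for C1ra and 0.15 (-0.93 to 1.24) for C4b. It was -0.28 (-0.65 to 0.08) for C1s1, -0.65 (-1.54 to 0.23) for Cfb and 0.34 (-0.13 to 0.81) for Cd59a. The value for Cfb was -0.05 without untreated WT replicate 1 and -1.69 without untreated WT replicate 2, not called either time. For Serping1, which is among the 20 of the list, the difference has no size, since both untreated groups had 0 counts. Of these 5 intervals that of C1ra alone lay wholly within 0.52 of 0, the size of the Cd59a change in WT.

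Untreated OVA and WT cells differed in 0 of 5 genes, Serping1 having no counts in either group, where 5.53% of all tested genes were called by edgeR, and 1 had an unadjusted p under 0.05 in edgeR, DESeq2 and limma-voom alike. That gene was Cfb, with a log2 difference of 0.91 (SE 0.38, 95% interval 0.10 to 1.72, edgeR adjusted p = 0.191). It was called without untreated WT replicate 2 (1.95, edgeR adjusted p = 0.0314), was 0.31 without untreated WT replicate 1 (edgeR adjusted p = 0.740) and was 0.39 (edgeR adjusted p = 0.366) with Gm20547 added. The log2 difference was -0.01 for C1ra, -0.17 for C1s1, -0.34 for C4b and 0.11 for Cd59a.

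Among treated cells, 3 of the 6 genes differed between the lines. C4b and C1s1 were lower in OVA, where 7.99% of all tested genes were lower, and Cd59a was higher, where 6.36% were higher. C4b was at 256 ± 5.73 CPM in OVA against 292 ± 2.52 CPM in WT (SD, n = 3 each), a log2 difference of -0.19 (SE 0.027, edgeR adjusted p = 1.59e-04). C1s1 was at 10.3 ± 0.440 against 14.2 ± 0.446 CPM, a log2 difference of -0.46 (SE 0.080, edgeR adjusted p = 9.28e-04). The treated groups overlapped for none of these 3 genes, Cd59a included, and the share of all tested genes without such overlap is not given here. The differences of C4b and C1s1 kept their call without each library in turn.

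Cd59a was at 5.43 ± 0.390 CPM in treated OVA against 3.97 ± 0.253 CPM in treated WT, a log2 difference of 0.45 (SE 0.15, edgeR adjusted p = 0.0479). Its call was lost with DESeq2 (adjusted p = 0.159) and limma-voom (adjusted p = 0.0631). It was also lost without untreated WT replicate 1 (edgeR adjusted p = 0.0511), without treated WT replicate 1, 2 or 3 (0.0718, 0.113 and 0.107) and without treated OVA replicate 1, 2 or 3 (0.0503, 0.123 and 0.131).

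C1ra was not called between the treated lines (log2 difference 0.00, 95% interval -0.08 to 0.09), nor were Cfb (0.26, SE 0.17, edgeR adjusted p = 0.363) and Serping1 (0.09, SE 0.40, edgeR adjusted p = 0.914). With Gm20547 added, the difference for Cfb was -0.05 (edgeR adjusted p = 0.768). Of the other tested genes of the list, C1rl was also lower in treated OVA cells (-0.28, edgeR adjusted p = 0.0147), a call lost with DESeq2 (adjusted p = 0.0551) and without treated WT replicate 2 or treated OVA replicate 3 (edgeR adjusted p = 0.0821 and 0.0895). The comparisons between lines use the same treated and untreated libraries as the responses.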

How the data were processed

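Per the file headers, the table that the authors deposited gives unnormalised read counts by gene for the 10 libraries, and no column belonged to another series. Per the labels' protocols, mRNA was selected with poly-T beads from total RNA, and the kit is not said to be stranded. One label speaks of tissue, while the others name cell lines. GRCm39, HISAT2 2.0.5 and featureCounts 1.6.0 appear in the submitters' processing notes. Strand setting, annotation release and treatment of multiply matching reads are not stated there, so near copies and overlapping genes are uncertain.

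From the counts, edgeR 4.0.16 (R 4.3.3) was run with TMM factors and filterByExpr, on the means of the 4 groups over all 10 libraries, two-sided, with Benjamini-Hochberg adjustment over 15526 genes. SEs and 95% intervals are Wald values of that fit. Replicates differed by more than sampling noise (chi-square per degree of freedom 2.08 to 3.76), a spread that may be technical. Each library was counted as 1 sample, although this spread does not show that the libraries came from separate cultures. Alternatives were DESeq2 1.42.0, limma-voom (limma 3.58.1), other scalings, filters and thresholds, a replicate block, and leaving out each library. For list genes other than the 8, these checks, and the Cfb level with Gm20547 added, were chosen after seeing the data. Scripts were tested on simulated data. Promoter windows are from RefSeq (GRCm38.p6), with coordinates of that build and not of the counts' build. Genes named are the 8, tested members of the complement lists, near copies and overlapping genes of the 8, and the 3 genes most correlated with each. Irf1, cell type markers and untested C1q genes are named outside that rule, as checks or as low genes, after their values were seen. The 8 genes, the lists and the tests were chosen with earlier results of these data known.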

Additional observations from a re-analysis of the deposited data

How the results depend on the processing

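With 1 library left out in turn, 261 log2 values of the 6 tested genes kept their direction and their side of the threshold. Of the other values, 10 changed direction, 8 lost a call and 1 gained one. Under the other alternatives 1 changed direction, 2 lost a call and 1 gained one, and these are given here or in the report. Without 1 library in turn, the number of the 6 genes called was 5 to 6 for the response in WT, 5 to 5 in OVA, 0 to 0 for the difference of responses, 0 to 1 between untreated lines and 2 to 3 between treated lines. The counts over all genes were 5339 to 6896, 5958 to 7626, 21 to 107, 350 to 1012 and 1431 to 2408. Changes of direction arose for values that were not called, with ranges of -0.17 to 0.23 for the difference of responses of C1ra, -0.17 to 0.56 for that of C4b, -0.40 to 0.085 for the OVA response of Cd59a, -0.22 to 0.17 for untreated C1ra, -0.15 to 0.34 for untreated Cd59a, -0.0019 to 0.0134 for treated C1ra and -0.0087 to 0.26 for treated Serping1. The treated difference of Cfb was -0.0507 with Gm20547 added. At an adjusted p under 0.01, 21 genes in place of 53 were called for the difference of responses, 381 in place of 859 between untreated lines and 1099 in place of 2229 between treated lines. DESeq2 called 518 between untreated and 1381 between treated lines. With no filter on low counts 284 genes were called for the difference of responses, and 1 of the 8 genes, Cfb, between untreated lines (log2 difference 0.92, adjusted p = 0.0420). The cause of these shifts was not tested. With the replicate number as a block, 165 genes were called for the difference of responses, and the number of the 6 genes called stayed 6, 5, 0, 0 and 3. The labels do not pair the numbers, so the numbers were not taken as pairs. Of 13 same-numbered pairs of libraries 3 had a correlation of deviations over 0.1, and of 24 other-numbered pairs 4 did. In the untreated groups the deviations of the libraries mirror each other, so these correlations cannot decide whether the numbers are pairs. Not every library correlated best with its own number. Depth limits Serping1, C3, Cd55 and untreated C4b, which rest on 0 to 14 counts per library.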

Other observations

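The genes whose log2 CPM across the 10 libraries was most like that of each tested complement gene were ranked by Pearson r, as a description. The libraries share 1 treatment, which splits them into clusters, so a high r is common. For C1ra they were Ifi203 (r = 0.9995), Cd274 (0.9994) and C2 (0.9994), and for C4b they were C2 (0.9997), Prph (0.9997) and Ppfibp2 (0.9996). C1s1, which was lower in treated OVA cells, was most like Etv6 (0.9973), Ralgds (0.9962) and Cadm1 (0.9959). Serping1 was most like Mgst1 (0.9981), Rnaset2a (0.9978) and Mfsd12 (0.9972). For Cfb, whose counts are shared with an overlapping model, the highest values were lower, with Zdhhc17 (0.9805), Cilk1 (0.9783) and Rabgef1 (0.9779), and for Cd59a they were Bloc1s5 (0.9345), Bcap29 (0.9264) and Syt11 (0.9227).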
